A study of Homo sapiens with 18 samples.

Results

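TDP2 encodes tyrosyl-DNA phosphodiesterase 2, also named TTRAP or EAP2, and lies on chromosome 6 between the genes KIAA0319 and ACOT13. The data described here are all MACS peaks and SISSRs sites that overlap the hg19 window chr6:24650000-24667500, which was chosen for this gene. The window held 68 of the 1413022 MACS peaks and 62 of the 1483019 SISSRs sites in the 12 libraries. The window was selected on the MACS and SISSRs calls themselves, because peaks recur in it, so positions, scores, tags and recurrence are described without a test.

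Topoisomerase II cuts both strands of DNA and stays joined to the cut ends through a tyrosine while another DNA segment passes through. The poisons etoposide and mitoxantrone hold the enzyme in this joined state, and TDP2 cleaves the bond between the tyrosine and the DNA, which lets the break be repaired. TOP2A is the form linked to dividing cells, and TOP2B is also present in cells that do not divide.

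The libraries come from KG-1, an established human myeloid leukaemia line, after chromatin immunoprecipitation (ChIP) with an antibody to TOP2A or to TOP2B. In the etoposide experiment, cells received the methanol vehicle or 100 µM etoposide for 1 h, with 2 libraries for each antibody and treatment. In the mitoxantrone experiment, cells were left untreated or received 0.5 µM mitoxantrone for 1 h, with 1 library for each antibody and treatment. DNA from several precipitations with the same antibody was pooled for each library, and nothing in the labels says that replicates came from separate cultures. Peak lists carry no expression values, so the cell line label could not be checked against markers. The 6 input samples have no list analysed here.

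The 8 libraries of the etoposide experiment shared 6 narrow blocks in the window, and the rest of the window held only scattered peaks of single libraries. A block is a region where overlapping MACS peaks of these libraries join and all 8 contribute. Of 1191649 such joined regions on chromosomes 1 to 22 and X, 0.000504% had a peak in all 8 libraries, which is 6 regions, and all of them are these blocks. The number of libraries per region in the window was either 8 (6 regions) or 1 (9 regions). Nothing lay between these extremes. Outside the window 4 regions had a peak in 7 of the 8 libraries.

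The blocks are numbered from the low-coordinate end of the window. On hg19, block 1 spanned chr6:24650945-24651605 and block 2 chr6:24653159-24653434. Block 3 spanned chr6:24654589-24654816 and block 4 chr6:24657996-24658179. Block 5 spanned chr6:24658659-24659018 and block 6 chr6:24666717-24667129. The blocks covered 2122 bp, or 13.1% of the 16185 bp from the first to the last. The spaces between neighbours ran from 479 bp (blocks 4 and 5) to 7698 bp (blocks 5 and 6). Exon and intron positions of TDP2 on hg19 were not used here, so no block was assigned to an exon, an intron or a UTR. Whether the signal came from chromatin or from spliced TDP2 DNA, such as a cDNA or a plasmid, was not tested.

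**Figure D1:**
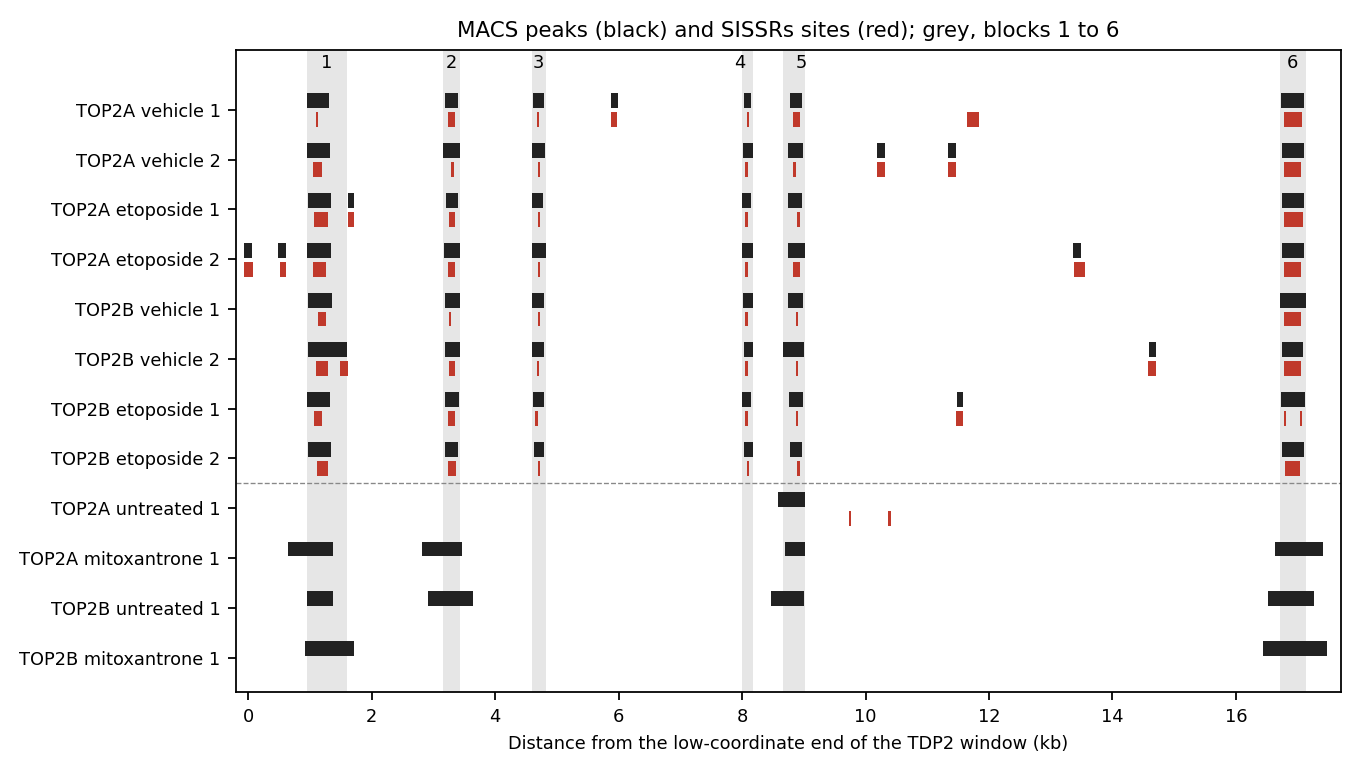
MACS peaks (black) and SISSRs sites (red) of the 12 libraries along the TDP2 window, with the x axis in kb from its low-coordinate end and the 6 blocks in grey. All 8 libraries above the dashed line have a peak in each block, whereas the 4 libraries of the mitoxantrone experiment below it have peaks, mostly wider, in 1 to 4 blocks.

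The gene is read from the minus strand in RefSeq (GRCh38.p14), so block 6, at the high-coordinate end, is the one towards the start of the gene. The RefSeq promoter, 250 bases before to 50 bases after the start, is shown as background on that end of the gene. It was not placed on hg19, so whether block 6 overlaps it was not tested. Capitals mark the motif GGGCGG on either strand, the GC box.

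TDP2 promoter: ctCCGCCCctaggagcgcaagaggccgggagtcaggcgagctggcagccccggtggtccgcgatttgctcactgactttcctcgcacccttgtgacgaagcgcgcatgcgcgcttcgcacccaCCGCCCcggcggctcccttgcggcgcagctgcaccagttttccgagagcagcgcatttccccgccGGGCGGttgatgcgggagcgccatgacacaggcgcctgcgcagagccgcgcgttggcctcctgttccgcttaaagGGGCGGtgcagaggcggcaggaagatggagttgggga

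The motif occurs 4 times in this sequence, and 45% of the 35116 RefSeq promoters of the same length hold it at least once. The motifs CCAAT and TATAAA, searched on both strands, are not in these letters, while 34.6% and 11.5% of the promoters hold them. The promoter is 68.7% G or C (median of all promoters 58.7%) and has 34 CG pairs (median 14).

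Block edges lay close together in the 8 libraries, with 1 library apart at 2 edges. The low-coordinate edge of block 1 ranged over 30 bp (SD 11.5 bp, n = 8), from 24650945 to 24650975. The same edge ranged over 39 bp in block 2 (SD 12.8 bp), 43 bp in block 3 (SD 13.1 bp), 36 bp in block 4 (SD 14.1 bp) and 38 bp in block 6 (SD 13.5 bp). The high-coordinate edge ranged over 42 bp in block 2 (SD 17.2 bp), 41 bp in block 3 (SD 12.6 bp) and 37 bp in block 4 (SD 13.0 bp). In blocks 5 and 6 it ranged over 46 bp (SD 17.5 bp) and 39 bp (SD 12 bp). TOP2B vehicle replicate 2 accounts for both wider ranges. Its block 1 peak ended at 24651605, while the other 7 ended by 24651349, and its block 5 peak began at 24658659, while the other 7 began from 24658740 on. Its extension of block 1 holds a SISSRs site of its own with 64 tags. The TOP2A and TOP2B libraries and both treatments are mixed in the order of the edges.

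**Figure D2:**
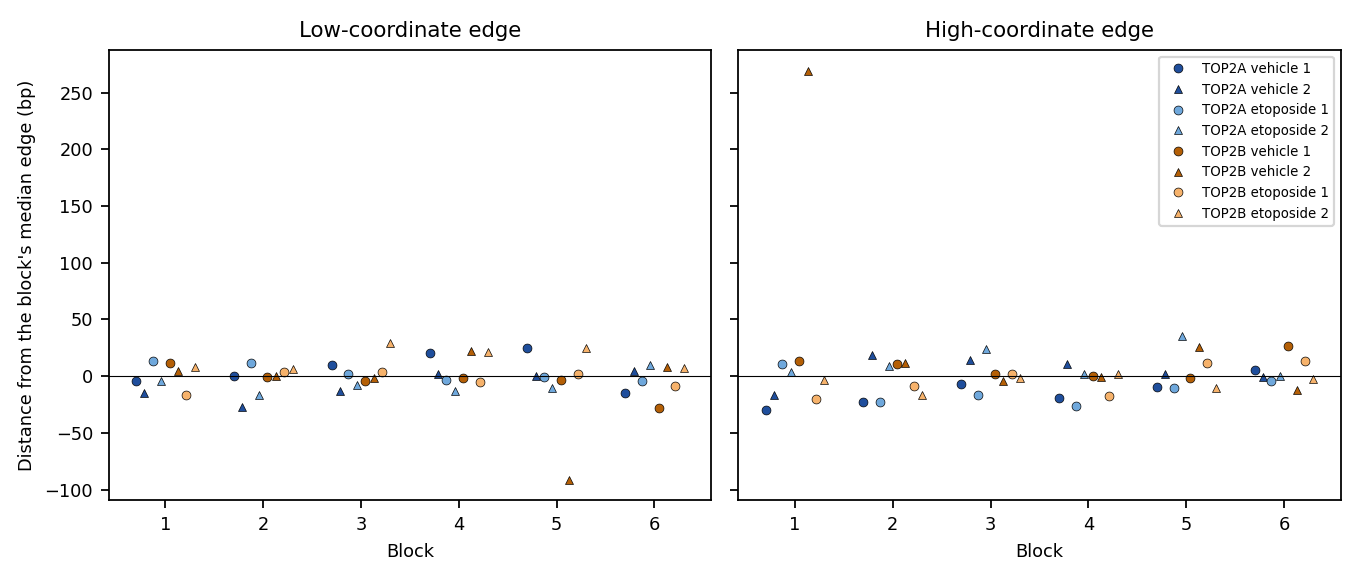
Distance in bp of each library's MACS peak edge from the median edge of the 8 libraries of the etoposide experiment, for the low-coordinate (left) and high-coordinate (right) edge of each block. Circles are replicate 1 and triangles replicate 2; TOP2B vehicle replicate 2 stands apart at block 1 (right) and block 5 (left).

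Peaks in the blocks were wide for their lists. Over the 8 libraries, block 1 was 350 to 640 bp wide (median 372.5 bp) and block 6 337 to 413 bp (median 355.5 bp). Blocks 5 and 2 had medians of 234.5 and 229.5 bp. Blocks 3 and 4 were the narrowest, with medians of 188.5 and 144 bp. In each list the median width over all peaks equalled the smallest width, 98 to 128 bp, so even block 4 was wider than the usual peak. The part of each block covered in every one of the 8 libraries, its core, was 332, 195, 144, 111, 198 and 336 bp long for blocks 1 to 6.

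The authors' MACS scores in the blocks were high, but how far they stood out depended on the list. A score of 3100, reached or passed by 0.0114% to 13.6% of peaks in a list, was shared by block 1 in all 8 libraries. Up to 17945 peaks of 1 list had exactly this score, so it does not rank the peaks or blocks that share it. In TOP2A etoposide replicate 1, blocks 1 and 2 were among the 7 peaks at this score, the highest of that list. Blocks 3, 5 and 6 scored 3061.81, 2830.01 and 1311.59 there, with 7, 9 and 19 peaks above them, and block 4 scored 666.03. In TOP2B etoposide replicate 1, block 1 was among the 8 peaks at 3100. Blocks 5, 6, 2 and 3 scored 2833.96, 2118.26, 2078.26 and 1632.51 in that library, with 10, 13, 14 and 17 peaks above them, and block 4 scored 327.63. These are the shortest lists of the experiment, with 36528 and 70459 peaks. In TOP2A vehicle replicate 1 and TOP2A etoposide replicate 2 all 6 blocks scored 3100, a value met or passed by 20809 and 8096 peaks of these lists.

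Low scores also occurred in the blocks. Block 3 scored 202.72 in TOP2B vehicle replicate 2, where only 14% of the list scored lower. Block 4 scored 973.08 in TOP2B vehicle replicate 1 (39.0% of the list lower) and 460.32 in TOP2B etoposide replicate 2 (36.4% lower). So presence in every library did not go with a leading score in every list.

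Bases of the window under MACS peaks are given by treatment and by antibody, as the study's design implies. The window was selected on these calls, so they are a description with no test. With the TOP2A antibody, 1544 and 1879 bp were covered with the vehicle and 1557 and 1972 bp with etoposide (replicates 1 and 2). Both groups overlap, with means of 1711.5 ± 237 and 1764.5 ± 293 bp (SD, n = 2 each). With the TOP2B antibody, 1626 and 2018 bp were covered with the vehicle and 1650 and 1415 bp with etoposide. These groups overlap as well, with means of 1822 ± 277 and 1532.5 ± 166 bp (SD, n = 2 each). The log2 ratio was 0.041 for etoposide over vehicle with TOP2A and -0.25 with TOP2B. For TOP2A over TOP2B it was -0.089 with the vehicle and 0.20 with etoposide.

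The 9 MACS peaks outside the blocks were each found in a single library. TOP2A etoposide replicate 2 had 3 of them and TOP2A vehicle replicate 2 had 2. TOP2A vehicle replicate 1, TOP2A etoposide replicate 1, TOP2B vehicle replicate 2 and TOP2B etoposide replicate 1 had 1 each. TOP2B vehicle replicate 1 and TOP2B etoposide replicate 2 had none. Their widths, 100 to 128 bp, were at or near the smallest width of their lists, and their scores ran from 61.34 to 985.28. The 116 bp peak of TOP2A vehicle replicate 1 was still wider than 81.3% of its list. Block 4 of that library, 120 bp wide, was wider than 85.1%. Per 10 kb outside the blocks the libraries had 0 to 1.95 peaks, and in the 500 kb on either side of the window they had 0.13 to 1.05 per 10 kb. One peak of TOP2A etoposide replicate 2, from 24649929 to 24650054, lies across the low edge of the window. The nearest MACS peak below the window ended 3505 bp from it, in TOP2A vehicle replicate 2, and the nearest above began 5885 bp from it, in TOP2A untreated.

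SISSRs, the other caller, placed at least 1 site in every block in all 8 libraries. The tags of called sites in the window lay almost wholly in the blocks. Tags are the read count that the authors' caller credits to a site. In TOP2A vehicle replicate 1 the window held 126111 tags in block sites and 463 in 2 other sites. In the other 7 libraries block sites held 5533 to 33947 tags and other sites 0 to 352. The blocks, 12.1% of the window's bases, thus held 98.97% to 100% of the tags in its called sites. Reads outside called sites are not in the lists, so the signal between the blocks was not measured.

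Block 1 had the most tags in all 8 libraries and block 4 the fewest. With TOP2A, block 1 held 43565 and 6334 tags after vehicle (replicates 1 and 2) and 3709 and 10247 after etoposide. With TOP2B it held 5398 and 4585 after vehicle and 5344 and 1786 after etoposide. In block 1 the vehicle and etoposide libraries overlap for each antibody. Replicates were far apart except with TOP2B and vehicle, and TOP2A vehicle replicate 1 stood above all others. Block 4 held 11177 and 1901 tags (TOP2A vehicle), 925 and 3257 (TOP2A etoposide), 2069 and 1558 (TOP2B vehicle), and 980 and 371 (TOP2B etoposide). There the treatments overlap with TOP2A but not with TOP2B. In blocks 2, 3, 5 and 6, as in block 1, they overlap with both antibodies. The total of reads per library is unknown, so tags were not compared between libraries as a change. The median of all sites in a list was 30 to 182 tags.

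The first and last block by tags were thus fixed, while the shares varied. Block 1 took 23.8% to 34.5% of the block tags (median 30.6%), block 2 12.5% to 17.0%, block 3 13.4% to 16.7%, block 4 5.19% to 10.1%, block 5 13.0% to 19.4% and block 6 9.39% to 19.9%. By the tags of a block's SISSRs sites divided by the length of its MACS core, block 3 was highest in 7 of 8 libraries (block 5 in TOP2B vehicle replicate 2). Block 6 was lowest in 7 of 8, with block 4 lowest in TOP2B etoposide replicate 1. Sites and cores cover different bases, so this quotient is not a tag density of the core.

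**Figure D3:**
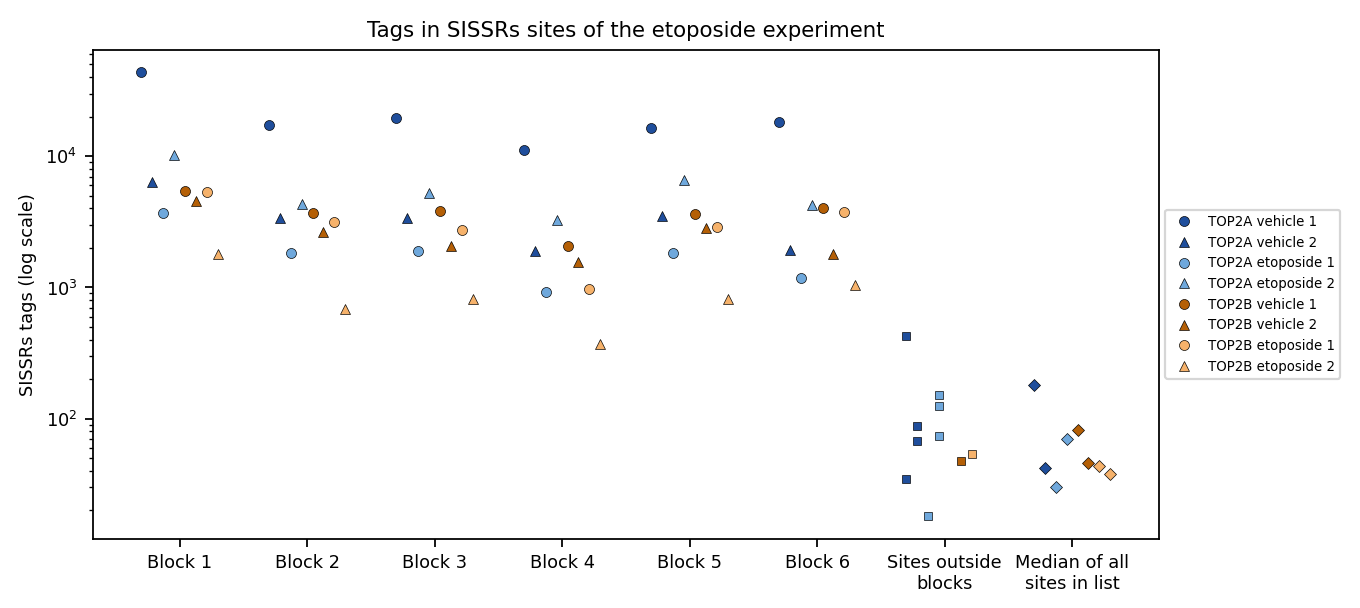
Tags (log scale) in the SISSRs sites of each block, in sites of the window outside the blocks (squares), and the median over all sites of each list (diamonds), for the 8 libraries of the etoposide experiment. Circles are replicate 1 and triangles replicate 2; every block lies at 371 tags or more, while single sites outside the blocks hold 18 to 428.

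Set against the rest of the genome, the window was among the richest stretches of its length. When the genome was tiled in stretches of 17501 bp, no other tile had more SISSRs tags than the window in TOP2A vehicle replicate 1, TOP2A etoposide replicate 2, TOP2B vehicle replicate 1 and TOP2B etoposide replicate 1. In the other 4 libraries 1 to 3 tiles had more. The window held 115 to 376 times the tags of the median tile with a site. The window was chosen because calls recur in it, so a high place among tiles can follow from that choice and is no test.

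The fold over background that the authors' lists give for each SISSRs site was low in the blocks. The median fold of the 6 block sites, taking the site with most tags in each, was 5.51 and 6.92 with TOP2A and vehicle and 6.75 and 12.3 with TOP2A and etoposide. It was 3.08 and 5.19 with TOP2B and vehicle and 9.52 and 5.06 with TOP2B and etoposide. For both antibodies the vehicle and etoposide libraries overlap. The median fold of all sites was 58.3 to 141 in these lists, and only 3.11% to 16.3% of a list had a fold lower than a block site. The p-values of the block sites were 0.010 to 0.054, while the medians of the lists were 1.4e-05 to 0.015. So by tags the blocks stood near the top of each list, and by fold near the bottom.

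**Figure D4:**
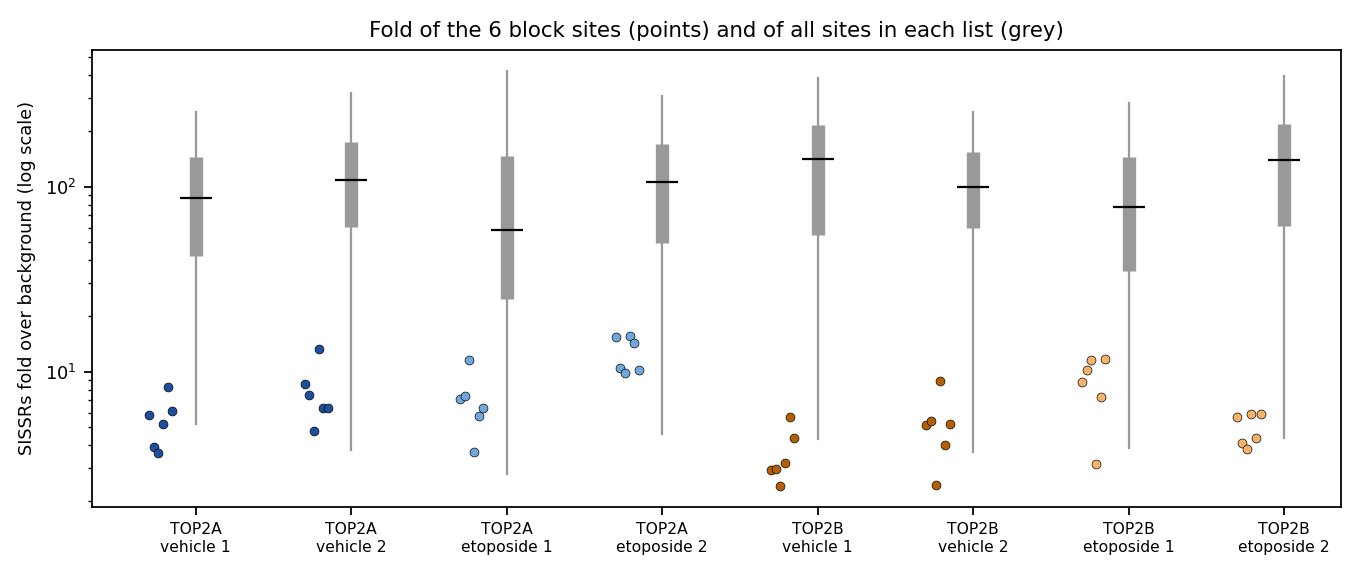
Fold over background (log scale) of the 6 block sites in each library (points, the site with most tags in each block) and of all sites in the same list (thick bar, 25th to 75th percentile; thin line, 5th to 95th; dash, median). All points lie at 15.61 or below, under the median of their list, which is 58.3 to 141. Further sites of a block, the highest at a fold of 17.73, are not drawn.

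The lists also carry a trace of the background behind these folds. Tags divided by fold gave a whole multiple of 1 constant per list, 0.228 to 1.859 tags, for 99.6% to 99.8% of sites with a multiple of up to 20 (tolerance 0.1). This multiple is read here as the background count of the site. It was 1 for 67.1% to 87.6% of those sites. As a check, sites with identical edges in a TOP2A and a TOP2B list and at least 20 background counts were compared. For lists of the same treatment and replicate number, 86.1% to 98.3% of 36 to 110 such sites had the same count within 1. For the other 12 pairings of lists it was 0% to 11.8% of 14 to 56 sites. The labels name 1 input sample per treatment and replicate, which both antibodies share. The background the authors set for the caller is not stated in the labels or lists.

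In the blocks this background was high in each of the 8 libraries. The 6 block sites, again the site with most tags in each block, had 1062 to 4041 background counts in TOP2A vehicle replicate 1 and 435 to 2229 in replicate 2. With TOP2A and etoposide they had 501 to 1592 and 369 to 1171. With TOP2B and vehicle they had 1256 to 3580 and 435 to 2184, and with TOP2B and etoposide 473 to 1511 and 277 to 1370. No more than 0.341% of the sites in any list had a count as high as the lowest block site of that list. In the same libraries, sites of the window outside the blocks had 1 to 8 counts, apart from 79.8 at the site of TOP2B vehicle replicate 2 at 24664572 to 24664711, whose fold was 1.5. The background is known only where a site was called, so its level in the rest of the window was not measured.

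Between the lists of the 2 antibodies the background counts were closer than the tags in most blocks. If both lists were called against 1 shared input, close counts follow from that and are no result about the blocks. All sites of a block were summed for this comparison, which has no test. In etoposide replicate 2, TOP2A tags in the blocks were 4.10 to 8.78 times the TOP2B tags, and background counts 0.855 to 1.33 times. In vehicle replicate 1 the ranges were 4.46 to 8.07 times and 0.846 to 1.13 times. In vehicle replicate 2 they were 1.07 to 1.64 and 0.948 to 1.11 times, and in etoposide replicate 1 they were 0.314 to 0.944 and 0.575 to 1.05 times. The lowest of these is block 6, where TOP2A had 1178 tags and 570 background counts in 1 site and TOP2B 3755 and 991 in 2 sites. At 4 block sites the edges were identical in both lists. Block 4 of vehicle replicate 2 had 1901 TOP2A tags and 1558 TOP2B tags, with 435 background counts in each list. Block 3 of etoposide replicate 2 had 5271 and 824 tags, with 945 and 946 background counts. Block 4 of etoposide replicate 1 had 925 and 980 tags, with 767 and 768. Block 6 of vehicle replicate 2, the fourth such site, had 1918 and 1788 tags, with 910 and 855. The ratio of tags also holds the unknown depth of each library. The part of this background in the MACS peaks was not tested.

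**Figure D5:**
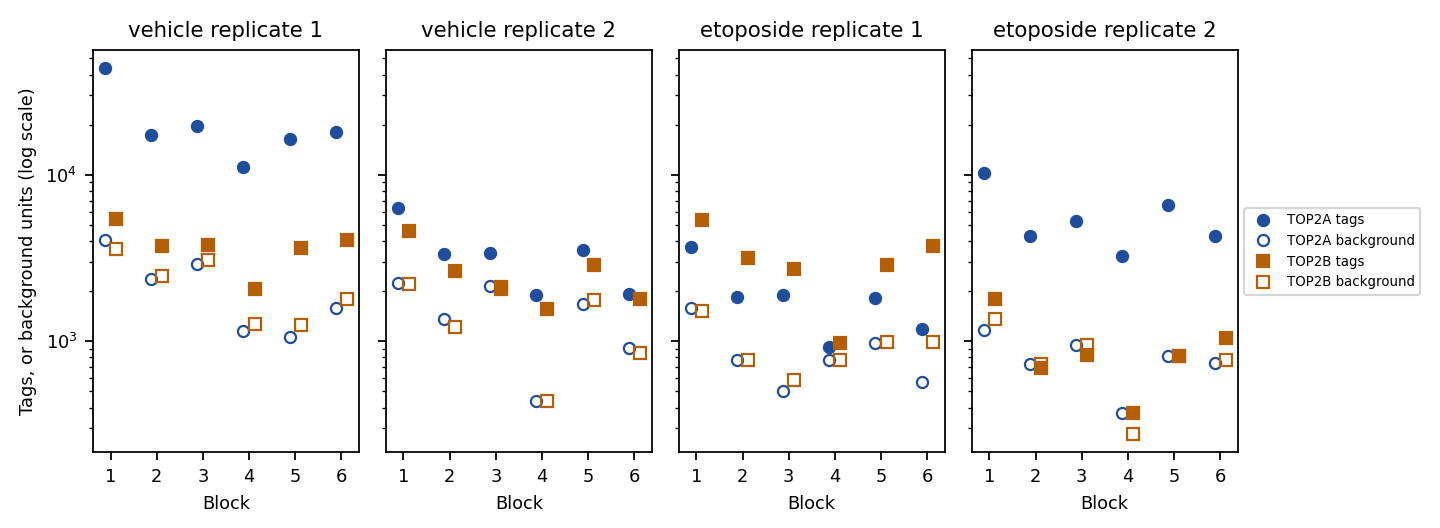
Tags (filled) and background counts (open, tags divided by fold and by the list's constant) of the 6 blocks, log scale, in the TOP2A (circles) and TOP2B (squares) list of each treatment and replicate number. Open symbols of the antibodies lie close together, as for 435 and 435 in block 4 of vehicle replicate 2, with block 6 of etoposide replicate 1 farthest apart (570 and 991). Filled and open heights are not on 1 scale, since 1 background count weighs 0.228 to 1.859 tags depending on the list.

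Joined regions with a SISSRs site in all 8 libraries were not particular to TDP2. Of 1243855 joined regions of SISSRs sites, 0.0143% (178) had a site in all 8 libraries, and 6 of these were the blocks. The other 172 lay on 22 chromosomes, 94 of them in only 10 bins of 1 Mb. They had a MACS peak in at most 7 of the 8 libraries, and 10 of them in none. Their median tags over libraries ran from 23 to 21879 (median 95.25), against 1729.5 to 5371 in the blocks. The 9 with more tags than the lowest block had median folds of 1.17 to 2.02, against 4.31 to 6.47 in the blocks. Of the 172, 18 had a higher median fold than the lowest block, and 0 had both more tags and a higher fold. The 172 regions differ in width, from short ones such as chr3:90338472-90338671 to long ones such as chr16:46385812-46430711. In a long region, sites of different libraries can be joined in a chain without all overlapping each other. Tags and folds were compared without regard to width.

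In the mitoxantrone experiment blocks 1, 2, 5 and 6 also had MACS peaks, and blocks 3 and 4, the narrowest, had none in any of the 4 libraries. The TOP2A untreated library had a peak in block 5 alone, with a score of 451.36, and 1 of its 109739 peaks scored higher. The TOP2B untreated library had peaks in all 4 of these blocks. Its block 5 peak, with a score of 2974.8, was the highest of 9290, and blocks 1, 2 and 6 scored 1066.81, 714.62 and 505.12, with 2, 4 and 5 peaks above them. With mitoxantrone, the TOP2A library had the same 4 blocks, which took the first 4 places of its 7607 peaks at scores of 2803.8 (block 1), 624.82 (block 5), 533.07 (block 6) and 334.26 (block 2). The TOP2B mitoxantrone library, with 702 peaks, had block 1 at 619.48, the highest score of the list, and block 6 at 137.46. With 1 library per group there is no replicate check, and a block without a peak is not shown to lack signal.

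These peaks were 328 to 1026 bp wide, in lists with median widths of 462 to 1126.5 bp. Each was wider than the median of its block in the etoposide experiment. The block 1 peak of TOP2B untreated (426 bp) and the block 5 peak of TOP2A mitoxantrone (328 bp) were narrower than the widest peak of the same block there, 640 and 350 bp, both in TOP2B vehicle replicate 2. Each of the 11 peaks covered its block's core in full. It reached 23 to 384 bp beyond the core on the low side and 25 to 410 bp on the high side. No peak of these 4 libraries lay in the window outside the blocks. SISSRs called no site in the blocks there. The SISSRs list of TOP2A untreated held 107945 sites. Those of TOP2A mitoxantrone, TOP2B untreated and TOP2B mitoxantrone were short, with 3740, 11047 and 1397 sites, so a missing site is not shown to be missing signal. The TOP2A untreated library had 2 sites in the window, with 27 and 34 tags, both between blocks 5 and 6, and the other 3 libraries had none.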

How the data were processed

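ChIP-seq libraries of KG-1 cells were sequenced as paired ends of 50 bp, per the labels' protocols. Bowtie2 2.2.5, bedtools 2.26.0, MACS 1.4 and hg19 are named in the submitters' processing notes, without roles; no source used here gives caller settings. Every library has a deposited MACS list, with the authors' score of each peak, and a deposited SISSRs list without header. From the values, its columns were read as the authors' tag count, fold (ratio) over background and p-value of each site. The authors called each library separately. Depth is unknown: the lists give no read totals.

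Starts were shifted to count from 1. Peaks of the 8 etoposide experiment lists were joined at an overlap of at least 1 bp. Scores and folds were ranked only within a list. The constant behind the folds came from sites of at least 50-fold. Covered bases were compared as log2 values. The planned two-sided exact permutation test is not quoted: the window was selected on these calls, and with 2 against 2 libraries its p cannot go below 0.333. Joining and the constant were tested on simulated data. Alternatives were a score of at least 100, SISSRs sites, peak number, block cores, regions joined within 100 bp, each library left out and the replicate number as a block. The window, lists and tests were chosen with earlier results of these data known. The rule for names was TDP2, plus the 3 other regions with peaks in most of the 12 libraries. RefSeq (GRCh38.p14) gave names, neighbours and the promoter only, so planned counts for other repair genes and the comparison with exons were not run. The software was scipy 1.17.1, pandas 2.3.3, numpy 2.4.6 and matplotlib 3.10.9 under Python 3.11.15. As separate cultures are not stated, the spread between replicates may be technical.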

Additional observations from a re-analysis of the deposited data

How the results depend on the processing

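The number of blocks was 6 with a score of at least 100, with SISSRs sites, with regions joined within 100 bp and without any 1 of the 8 libraries. Of these settings, only SISSRs sites could have given another number. Block scores were at least 202.72, spaces between blocks at least 479 bp, and every other region of the window had 1 library. The log2 ratio of covered bases for TOP2A, etoposide over vehicle, turned from 0.041 to -0.007 with a score of at least 100 and ran from -0.13 to 0.21 with 1 library left out. TOP2A over TOP2B with vehicle turned from -0.089 to 0.26 with SISSRs sites and to 0.21 by number of MACS peaks, and ran from -0.25 to 0.067 with 1 library left out. With 1 library left out, the ratio for TOP2B, etoposide over vehicle (-0.25), ran from -0.40 to -0.09, and that for TOP2A over TOP2B with etoposide (0.20) from 0.027 to 0.37. By number of MACS peaks the former was 0 and the latter 0.29, and with SISSRs sites they were -0.28 and 0.70. The cause was not tested. The replicate block gave the same log2 ratios, 0.041, -0.25, -0.089 and 0.20 in the order treatment (TOP2A, TOP2B) and antibody (vehicle, etoposide).

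The mean share of peak bases in the blocks was 89.4% and 89.0% (TOP2A vehicle, etoposide) and 96.9% and 96.9% (TOP2B). Blocks were joined from the peaks of these same libraries, so only peaks outside the blocks lower this share. With SISSRs sites it was 69.3%, 78.6%, 92.4% and 90.7% in the same order, and with block cores, which are shorter by construction, 77.6%, 75.6%, 73.1% and 86.4%. In the mitoxantrone experiment it was 80.8% and 57.6% (TOP2A untreated, mitoxantrone) and 59.6% and 58.8% (TOP2B). With cores these were 45.3%, 42.5%, 43.5% and 36.6%, and SISSRs sites gave 0% for TOP2A untreated and no value for the other 3. The libraries of the mitoxantrone experiment did not define the blocks and had no peak in the window apart from them. Their peak bases not in blocks thus lay where block peaks reach beyond the block edges, so the 2 experiments' shares are not comparable. Read depth is unknown, so missing peaks in short lists cannot be read as missing signal.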

Other observations

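Outside the TDP2 window, the regions with MACS peaks in the most of the 12 libraries were wide joined stretches. On hg19, chr16:33236842-33241613 (4772 bp) had peaks of 10 libraries and chr5:17517636-17524329 (6694 bp) of 9. Each of them holds peaks of all 8 libraries of the etoposide experiment, but only because peaks of the mitoxantrone experiment join them. Joined on their own, the peaks of the etoposide experiment formed no region of all 8 libraries outside the window. The third, chr8:143394908-143398913, had peaks of 7 libraries. Blocks 1, 5 and 6 of TDP2 had peaks of 11 of the 12 libraries and block 2 of 10. The median score percentile within the lists was 23.2 in the chromosome 16 region, 7.0 in the chromosome 5 region and 85.0 in the chromosome 8 region.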
